A study of Saccharomyces cerevisiae and Saccharomyces kudriavzevii and Saccharomyces uvarum with 18 samples.

Results

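The 10 genes described here are the thiamine synthesis and uptake genes THI2, THI4, THI5, THI6, THI7, THI11, THI12, THI13, THI20 and THI21 of Saccharomyces cerevisiae. They were taken from the array by the names of their open reading frames (YBR240C, YGR144W, YFL058W, YPL214C, YLR237W, YJR156C, YNL332W, YDL244W, YOL055C and YPL258C), and all 10 were found among 6172 genes. Their values were not part of that rule, but earlier results of these data were known when the genes were chosen. RNA came from yeast fermenting Tempranillo must to wine at 28°C or 12°C, and was taken as the cells entered stationary phase. RNA of S. uvarum CECT 12600, S. kudriavzevii IFO 1802 or the commercial wine yeast S. cerevisiae Fermol cryophile was labelled with Cy3 and hybridised together with Cy5-labelled RNA of the wine strain S. cerevisiae Lalvin T73 from the same temperature. There were 6 groups of 3 arrays (A, B and C), 1 group for each strain at each temperature. S. uvarum and S. kudriavzevii were represented by 1 strain each. The methods name 2 independent fermentations but 3 hybridisation experiments, so that arrays of a group may share a fermentation, and the p-values then measure a spread that is in part technical. For S. uvarum the strain field gives a different collection number for each replicate letter, while the titles give 12600 throughout, and the titles were followed.

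Thiamine (vitamin B1) is made in yeast from a thiazole and a pyrimidine that are built separately and then joined. Thi4 builds the thiazole and gives up a sulfur of its own protein in the reaction, and the Thi5 family of enzymes builds the pyrimidine from histidine and pyridoxal phosphate, a form of vitamin B6. Thiamine diphosphate, the active form, is the cofactor of pyruvate decarboxylase and therefore of alcoholic fermentation. When thiamine is scarce, yeast turns on these genes through the regulators Thi2, Thi3 and Pdc2.

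All values are log2 ratios of strain over T73, so that 0 means an equal signal of strain and T73 and 1 means a signal 2-fold higher in the strain. A ratio describes the whole culture, in which fewer cells with the RNA and less RNA per cell cannot be told apart. The strain carried the same dye on all 18 arrays, and the probes were copies of S. cerevisiae genes. A dye bias of a gene, or weaker binding of S. uvarum or S. kudriavzevii RNA to the probe, is therefore part of the ratio and cannot be told apart from a difference in RNA. The arrays differed in spread, with standard deviations over genes between 0.63 and 1.99. Fermol cryophile array C at 28°C stood apart, with 6.11% of its genes at least 2-fold from T73 against 32.7% and 38.8% on arrays A and B of that group. Pairs of arrays of the same temperature correlated at -0.147 or above over genes, while 15 of 81 pairs of different temperatures lay below -0.3 (lowest -0.618). A direction was kept because the labels give the same dyes for all arrays and the temperatures could oppose each other.

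**Figure D1:**
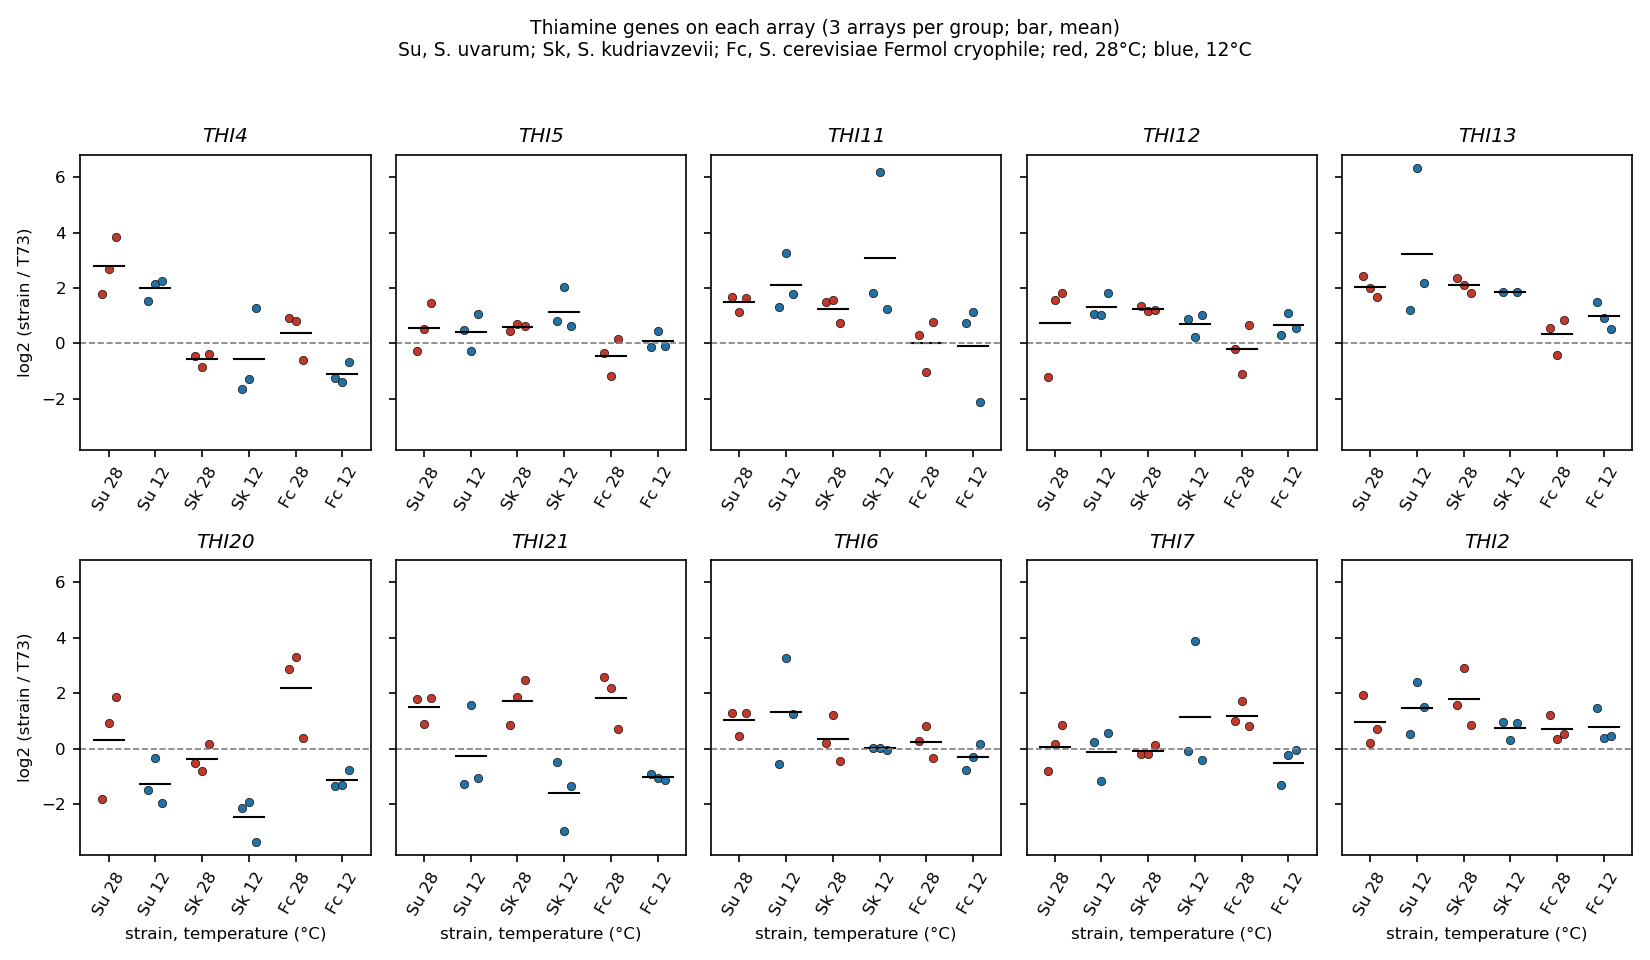
Each point is 1 array (3 per group) and the bar is the group mean. The vertical axis is the log2 ratio of strain over T73, the horizontal axis gives strain and temperature (Su, S. uvarum; Sk, S. kudriavzevii; Fc, S. cerevisiae Fermol cryophile), with 28°C in red left of 12°C in blue. THI4 lies above 0 on all 6 S. uvarum arrays, THI21 on 9 of 9 arrays at 28°C and 1 of 9 at 12°C, and THI2 on all 18 arrays.

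The thiamine genes did not move as a block against T73. At 28°C, S. uvarum had all 10 mean log2 ratios above 0 (median 0.98, against 0.09 over all genes), and THI4 rose. At 12°C, THI4 and THI13 rose in S. uvarum, whose median over the 10 genes was 1.32 against 0.04 over all genes. In S. kudriavzevii at 12°C, THI5 and THI11 rose while THI20 and THI21 fell. In Fermol cryophile no thiamine gene passed the test at either temperature.

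The counts were read against the share of all genes that passed the same test, an adjusted p below 0.05 in limma. In S. uvarum 1 of 10 genes was called at 28°C, where 10.9% of all genes were, and 2 of 10 at 12°C, where 6.4% were. In S. kudriavzevii 0 of 10 were called at 28°C, where 0.146% of all genes were, and 4 of 10 at 12°C, where 23.4% were. In Fermol cryophile 0 of 10 were called at 28°C and 0 of 10 at 12°C, where 0.0325% and 8.12% of all genes were called. At an unadjusted p below 0.05 limma gave 3 thiamine genes in S. uvarum (28.2% of all genes), 4 in S. kudriavzevii (11.3%) and 2 in Fermol cryophile (13.4%) at 28°C. At 12°C it gave 6 in S. uvarum (24.7% of all genes), 5 in S. kudriavzevii (37.8%) and 1 in Fermol cryophile (28.9%). The 3 strains were all set against T73, so their comparisons share the control, and whether 1 T73 RNA or several were used is not given in the sources used here. By the study's rule of a median at least 2-fold from T73, which has no test, 6 of the genes were higher in S. uvarum at 28°C (19.3% of all genes were), 5 in S. kudriavzevii at 28°C (8.53%) and 3 in Fermol cryophile at 28°C (13.4%). None was at least 2-fold lower at 28°C, where 14.9% of all genes were in S. uvarum, 6.58% in S. kudriavzevii and 9.17% in Fermol cryophile. At 12°C, 6 were higher (13.3% of all genes) and 2 lower (14.5%) in S. uvarum, 2 higher (22.3%) and 3 lower (18.1%) in S. kudriavzevii, and 0 higher (15.5%) and 3 lower (14.9%) in Fermol cryophile.

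THI4, which encodes the thiazole synthase, was higher in S. uvarum than in T73 on every array. At 28°C its log2 ratios were 1.78, 2.69 and 3.85 on arrays A, B and C of S. uvarum, and at 12°C they were 1.53, 2.15 and 2.27. In S. kudriavzevii they were -0.44, -0.85 and -0.39 at 28°C and -1.65, -1.30 and 1.29 at 12°C. In Fermol cryophile they were 0.91, 0.81 and -0.60 at 28°C and -1.26, -1.39 and -0.66 at 12°C. The S. uvarum values thus lay above those of the other strains at both temperatures, with no array in common range. In S. uvarum THI4 rose by 2.78 at 28°C (SE 0.50, adjusted p 0.00508, limma) and by 1.98 at 12°C (SE 0.50, adjusted p 0.0302). In the order of group means, S. uvarum at 28°C (2.78 ± 1.04, SD, n = 3) and S. uvarum at 12°C (1.98 ± 0.40) overlapped in range. Fermol cryophile at 28°C (0.37 ± 0.84) came next, outside the range of both S. uvarum groups and overlapping S. kudriavzevii at 12°C (-0.55 ± 1.61), which overlapped S. kudriavzevii at 28°C (-0.56 ± 0.25). Fermol cryophile at 12°C came last (-1.11 ± 0.39) and overlapped S. kudriavzevii at 28°C. The call at 28°C was lost without S. uvarum array C (2.24, adjusted p 0.0643), and the call at 12°C without any 1 of the 3 S. uvarum arrays at 12°C (1.84 to 2.21, adjusted p up to 0.175).

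Set directly against the other strains, the difference in THI4 was of similar size but did not pass the test over all genes. S. uvarum minus S. kudriavzevii gave 3.34 at 28°C (SE 0.71, adjusted p 0.108) and 2.54 at 12°C (SE 0.71, adjusted p 0.530). S. uvarum minus Fermol cryophile gave 2.40 at 28°C (SE 0.71, adjusted p 0.329) and 3.09 at 12°C (SE 0.71, adjusted p 0.402). The unadjusted p-values of these 4 comparisons lay between 0.000219 and 0.00365. The arrays did not overlap in any of them, which was also so, in the same direction, for 9.32% of all genes against S. kudriavzevii at 28°C, 4.01% at 12°C, 6.87% against Fermol cryophile at 28°C and 11.1% at 12°C. T73 drops out of these differences if the same control RNA was used for both strains.

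THI5, THI11, THI12 and THI13 encode near-identical enzymes that build the pyrimidine of thiamine. Each has its own spot, but RNA of 1 of them can bind the spots of all, so the ratios of the single genes are uncertain and the 4 are no independent observations. Their mean on an array was above T73 on each of the 6 S. uvarum and 6 S. kudriavzevii arrays. In S. uvarum this mean was 0.66, 1.31 and 1.65 on the arrays at 28°C, and 1.01, 2.58 and 1.71 on those at 12°C. In S. kudriavzevii it was 1.41, 1.38 and 1.09 on the arrays at 28°C, and 1.33, 2.81 and 1.18 on those at 12°C. In Fermol cryophile the same mean was 0.08, -0.93 and 0.62 on the arrays at 28°C, and 0.60, 0.88 and -0.28 on those at 12°C, on both sides of T73. Neither the S. uvarum nor the S. kudriavzevii arrays overlapped with those of Fermol cryophile at the same temperature in this mean. Over all genes, 6.87% did not overlap in this direction between S. uvarum and Fermol cryophile at 28°C and 11.1% at 12°C, and 9.88% between S. kudriavzevii and Fermol cryophile at 28°C and 9.85% at 12°C. These shares are of single genes and not of means of 4 genes, so they are only a rough measure here. The group mean was 1.21 ± 0.50 at 28°C and 1.77 ± 0.79 at 12°C in S. uvarum (SD, n = 3), 1.29 ± 0.18 at 28°C and 1.78 ± 0.90 at 12°C in S. kudriavzevii, and -0.08 ± 0.79 at 28°C and 0.40 ± 0.61 at 12°C in Fermol cryophile. The SE of each group mean in the limma fit was 0.41. Fitted in place of the 4 genes, this mean was called at 12°C in S. uvarum (6.42% of all genes were called) and in S. kudriavzevii (23.4%). It was not called in any group at 28°C or in Fermol cryophile at 12°C. On array B of S. kudriavzevii at 12°C the mean is over 3 genes, since THI13 has no value there, and THI11 stood at 6.19. On array B of S. uvarum at 12°C THI13 stood at 6.32. Whether the calls of the mean hold without array B was not tested.

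Of the single genes of this family, 3 were called against T73, all at 12°C. THI13 had log2 ratios of 1.22, 6.32 and 2.17 in S. uvarum at 12°C and rose by 3.24 (SE 0.65, adjusted p 0.0118). THI11 had 1.81, 6.19 and 1.26 in S. kudriavzevii at 12°C and rose by 3.09 (SE 0.75, adjusted p 0.0108). Both rest on array B of the group, which had the widest spread of its group over all genes (standard deviation 1.71 for S. uvarum and 1.99 for S. kudriavzevii). With all arrays scaled to a common spread, THI13 kept its call (2.99, adjusted p 0.00686) and THI11 did not (2.12, adjusted p 0.0509), nor did it with quantile normalization (2.15, adjusted p 0.0586) or array weights (2.34, adjusted p 0.0835). Without array B, THI13 stood at 1.70 in S. uvarum (adjusted p 0.0885) and THI11 at 1.54 in S. kudriavzevii (adjusted p 0.140). THI5 had 0.80, 2.02 and 0.61 in S. kudriavzevii at 12°C and rose by 1.14 (SE 0.40, adjusted p 0.0463). That call was lost in 11 of 18 fits that left out 1 array, and the value was 0.71 without array B. It was also lost with each array centred, scaled to a common spread, quantile normalized or weighted, and with a replicate block (0.79 to 1.14, adjusted p 0.0510 to 0.178). THI13 has no value on S. kudriavzevii array B at 12°C, and its other values there, 1.86 and 1.84, gave 1.85 with an adjusted p of 0.099.

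THI13 was 2.43, 2.01 and 1.68 in S. uvarum and 2.36, 2.11 and 1.81 in S. kudriavzevii at 28°C, and missed the threshold in both (adjusted p 0.0531 in S. uvarum and 0.216 in S. kudriavzevii). THI12 was 1.36, 1.16 and 1.20 in S. kudriavzevii at 28°C (adjusted p 0.328), and -1.21, 1.57 and 1.81 in S. uvarum. THI11 was 1.69, 1.15 and 1.64 in S. uvarum at 28°C and 1.48, 1.55 and 0.74 in S. kudriavzevii. At 28°C THI11, THI12 and THI13 were thus above T73 on every array of both strains, apart from THI12 on S. uvarum array A. THI5 was -0.278, 0.528 and 1.47 in S. uvarum at 28°C, below T73 on array A. In S. kudriavzevii at 28°C it was 0.43, 0.708 and 0.615. In Fermol cryophile the 4 genes ranged between -1.16 and 0.86 at 28°C and between -2.11 and 1.50 at 12°C. Although nearly identical, the 4 genes did not give the same ratio. The range among them on an array was 0.34 at the least and 6.57 at the most, with a median of 1.21. THI5 had the lowest ratio of the 4 on 15 of 18 arrays and THI13 the highest on 13. Over the 18 arrays, which share T73, the 6 pairs of these genes correlated with Pearson r between 0.151 and 0.777 (median 0.462), while the other 39 pairs of thiamine genes had a median of 0.020.

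**Figure D2:**
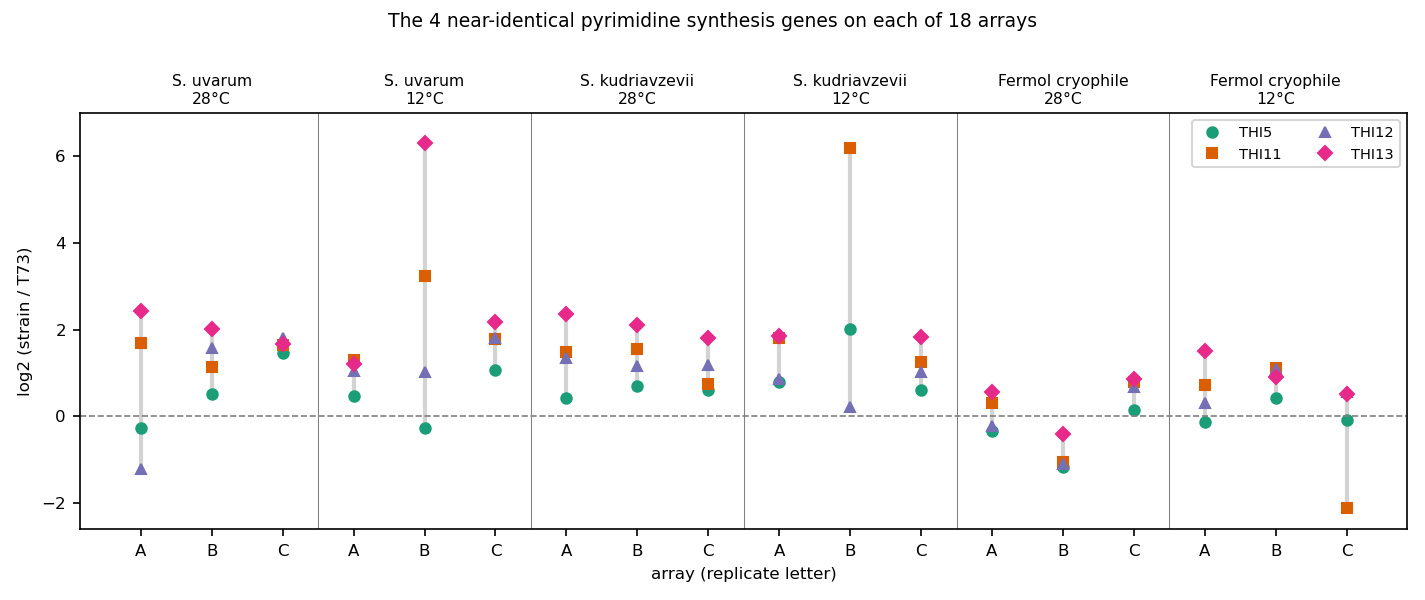
Log2 ratio of strain over T73 for THI5, THI11, THI12 and THI13 on each of the 18 arrays, with a grey line from the lowest to the highest gene of an array. The widest lines are array B of S. uvarum at 12°C, where THI13 is at 6.32, and array B of S. kudriavzevii at 12°C, where THI11 is at 6.19 and THI13 has no value.

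THI20 and THI21, related genes for kinases that phosphorylate the pyrimidine, differed between the temperatures. At 28°C THI21 was above T73 on 9 of 9 arrays, and at 12°C on 1 of 9. Its log2 ratios at 28°C were 1.81, 0.90 and 1.84 in S. uvarum, 0.85, 1.85 and 2.48 for S. kudriavzevii and 2.58, 2.18 and 0.73 in Fermol cryophile. At 12°C they were -1.27, 1.58 and -1.06 in S. uvarum, -0.49, -2.96 and -1.34 for S. kudriavzevii and -0.93, -1.04 and -1.14 in Fermol cryophile. The temperatures overlapped only through array B of S. uvarum at 12°C. THI20 was above T73 on 6 of 9 arrays at 28°C and on 0 of 9 at 12°C. At 28°C its values were -1.80, 0.92 and 1.86 in S. uvarum, -0.51, -0.80 and 0.16 for S. kudriavzevii and 2.88, 3.30 and 0.39 in Fermol cryophile. At 12°C they were -1.49, -0.33 and -1.97 in S. uvarum, -2.15, -1.94 and -3.35 for S. kudriavzevii and -1.36, -1.30 and -0.76 in Fermol cryophile. In THI20 the temperatures did not overlap in S. kudriavzevii or Fermol cryophile, as for 13.0% and 30.6% of all genes in this direction, but did in S. uvarum. Because the genes are related in sequence, RNA of either may bind both spots, and over the 18 arrays their ratios had a Pearson r of 0.710.

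Averaged over the 3 strains, the ratio was higher at 28°C than at 12°C by 2.65 for THI21 (SE 0.45, adjusted p 0.000702, limma) and by 2.34 for THI20 (SE 0.50, adjusted p 0.00247). These were the only 2 of 10 thiamine genes called in that comparison, in which 36.2% of all genes were called. Within Fermol cryophile THI20 was higher at 28°C by 3.33 (SE 0.86, adjusted p 0.0268) and THI21 by 2.86 (SE 0.78, adjusted p 0.0306), 2 of 10 genes where 12.2% of all genes were called. Within S. kudriavzevii the differences were 3.33 for THI21 (SE 0.78, adjusted p 0.0666) and 2.10 for THI20 (SE 0.86, adjusted p 0.186), and within S. uvarum 1.77 for THI21 (SE 0.78, adjusted p 0.186) and 1.59 for THI20 (SE 0.86, adjusted p 0.282). No thiamine gene was called in these 2 strains, where 0.407% (S. kudriavzevii) and 2.87% (S. uvarum) of all genes were. At an unadjusted p below 0.05 there were 2 thiamine genes in S. kudriavzevii and 1 in S. uvarum, against 20.4% and 22.9% of all genes, so that the members did not stand above that share. Whether the temperature difference itself differed between strains was also tested, and 0 of 10 genes passed in any of the 3 pairs of strains, and 0.0% of all genes were called in each. At an unadjusted p below 0.05 there were 0 thiamine genes for S. uvarum minus Fermol cryophile (2.79% of all genes), 1 for S. kudriavzevii minus Fermol cryophile (5.62%) and 0 for S. uvarum minus S. kudriavzevii (4.85%). The 1 gene was THI7 in S. kudriavzevii against Fermol cryophile (-2.92, SE 1.24, adjusted p 0.821).

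T73 was fermented at both temperatures too, so a response of T73 enters all these differences with the opposite sign and cannot be told apart from a response of the strains. The calls averaged over strains held in all 18 fits that left out 1 array. The calls within Fermol cryophile were lost without any 1 of its arrays at 12°C and without array A or B at 28°C. Against T73 itself, S. kudriavzevii at 12°C was the only group in which either gene was called in the fit of all 18 arrays, before further normalization or weighting. THI20 fell by 2.48 there (SE 0.61, adjusted p 0.0111) and THI21 fell by 1.60 (SE 0.55, adjusted p 0.0456). The THI20 call was lost without array C of that group (adjusted p 0.0599), and the THI21 call was lost in 10 of 18 such fits, its value being -0.91 without array B. The THI21 call was also lost with scaled, quantile normalized or weighted arrays and with a replicate block (-1.60 to -1.10, adjusted p 0.0584 to 0.178). The THI20 call in S. kudriavzevii at 12°C was kept under these 3 settings, where 7.35%, 8.31% and 19.3% of all genes were called. With scaled, quantile normalized or weighted arrays both genes were also called in Fermol cryophile at 28°C, where 3.9%, 5.23% and 26.4% of all genes were. With array weights THI20 was called in S. uvarum at 12°C too (13.0% of all genes). In Fermol cryophile at 12°C both were called with array weights (51.2% of all genes) and with that group fitted alone (24.6%).

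THI6 encodes the enzyme that joins the thiazole and the pyrimidine to thiamine phosphate. Its log2 ratios were 1.30, 0.47 and 1.29 in S. uvarum at 28°C and -0.54, 3.28 and 1.25 at 12°C. In S. kudriavzevii they were 0.20, 1.23 and -0.43 at 28°C and 0.04, 0.04 and -0.03 at 12°C. In Fermol cryophile they were 0.29, 0.80 and -0.33 at 28°C and -0.77, -0.30 and 0.16 at 12°C. No group was called, the mean being highest in S. uvarum at 12°C (1.33 ± 1.91, SD, n = 3, adjusted p 0.123) and next in S. uvarum at 28°C (1.02 ± 0.48, adjusted p 0.206).

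THI7 encodes the thiamine transporter of the plasma membrane, the route by which thiamine of the must enters the cell. It was 1.01, 1.71 and 0.84 in Fermol cryophile at 28°C and -1.30, -0.22 and -0.03 at 12°C, with no overlap between the temperatures. The difference of 1.70 missed the threshold (SE 0.88, adjusted p 0.185), and 30.6% of all genes did not overlap in this direction in Fermol cryophile. In S. uvarum the values of -0.81, 0.16 and 0.87 at 28°C, and of 0.25, -1.18 and 0.57 at 12°C, lay around T73. S. kudriavzevii had -0.20, -0.19 and 0.15 at 28°C, and -0.07, 3.90 and -0.42 at 12°C, so that the mean at 12°C (1.14 ± 2.40) rests on array B. THI7 was not called in any comparison, but with quantile normalization or array weights it was in Fermol cryophile, both at 28°C and between the temperatures.

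THI2 encodes an activator that binds the promoters of thiamine genes. It was the only thiamine gene above T73 on all 18 arrays, which was so for 15 of the 5007 genes with a value on every array (0.3%). The ratios were 1.93, 0.21 and 0.71 in S. uvarum at 28°C and 0.55, 2.40 and 1.50 at 12°C. They were 1.57, 2.93 and 0.84 in S. kudriavzevii at 28°C and 0.95, 0.32 and 0.94 at 12°C. They were 1.21, 0.36 and 0.53 in Fermol cryophile at 28°C and 1.48, 0.37 and 0.47 at 12°C. All 6 groups overlapped in range. No group passed the test, the nearest being S. uvarum at 12°C (1.48, SE 0.45, adjusted p 0.0574) and S. kudriavzevii at 28°C (1.78, SE 0.45, adjusted p 0.124). With scaled, quantile normalized or weighted arrays THI2 was called in S. uvarum at 12°C, where 9.95%, 9.01% and 13.0% of all genes were. It was also called there without array A of S. uvarum at 12°C or without array A of S. uvarum at 28°C. Since all 18 arrays share the dye order and T73, their common direction is no sum of independent observations.

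Between strains, 0 of 10 thiamine genes passed the limma test in each of the 6 comparisons. Of all genes 0.0%, 0.0163% and 0.146% passed at 28°C and 0.0162%, 0.0% and 0.0% at 12°C, in the order S. uvarum minus Fermol cryophile, S. kudriavzevii minus Fermol cryophile and S. uvarum minus S. kudriavzevii. At an unadjusted p below 0.05 there were 2, 2 and 1 thiamine genes at 28°C (8.4%, 7.24% and 11.4% of all genes) and 3, 1 and 1 at 12°C (8.1%, 7.12% and 7.32%), in the same order. Beside THI4 the widest differences were those of THI11 and THI20. THI11 differed by 3.17 between S. kudriavzevii and Fermol cryophile at 12°C (SE 1.06, adjusted p 0.667). That difference draws on array B of S. kudriavzevii (6.19, beside 1.81 and 1.26) and array C of Fermol cryophile (-2.11, beside 0.73 and 1.12). For THI20 the difference between S. kudriavzevii and Fermol cryophile at 28°C was -2.57 (SE 0.86, adjusted p 0.612). The arrays of these pairs did not overlap, which held in the same direction for 9.85% and 9.59% of all genes.

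**Figure D3:**
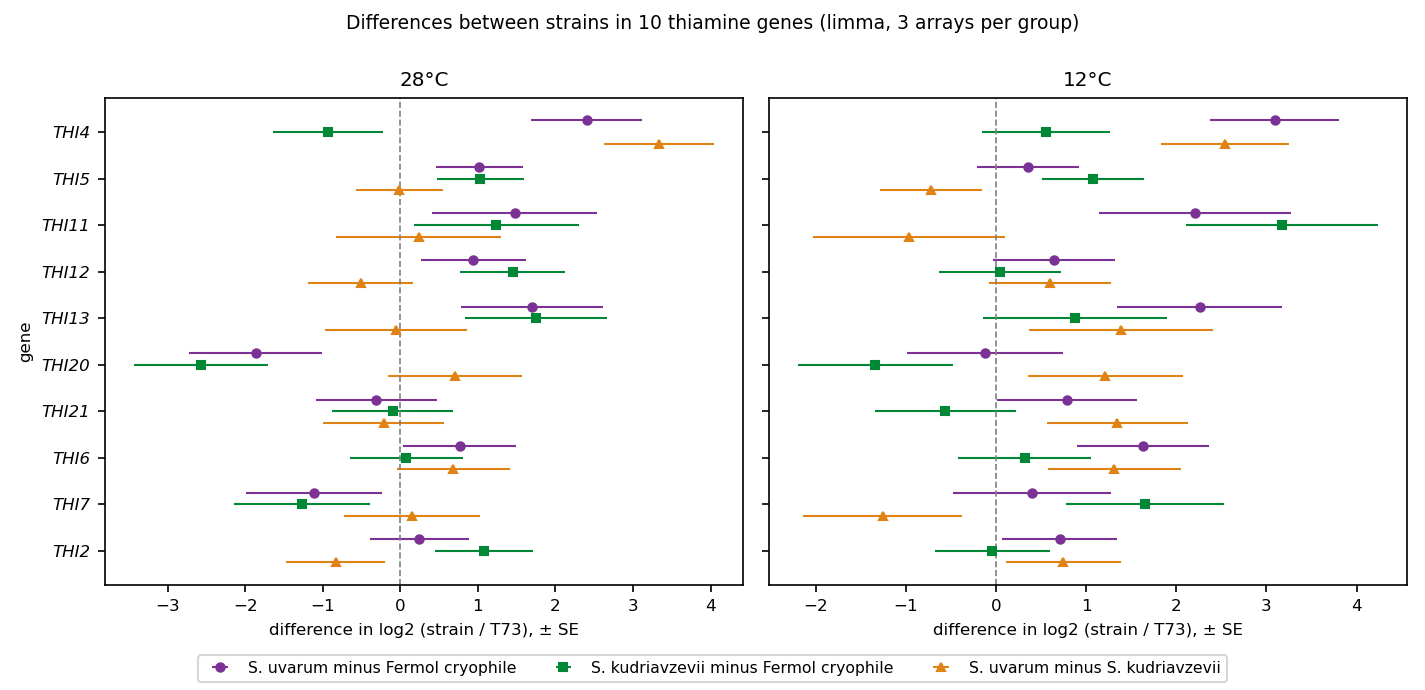
Difference in log2 ratio between strains for each of the 10 thiamine genes (± SE of the limma fit, 3 arrays per group), at 28°C on the left and at 12°C on the right. The 2 differences of S. uvarum in THI4 lie between 2.40 and 3.34 at 28°C and between 2.54 and 3.09 at 12°C, and none of the differences shown passed the test.

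The further thiamine genes were looked up as a list of 11. Averaged over strains, 6 of 11 differed between the temperatures, 4 higher (19.8% of all genes) and 2 lower at 28°C (16.4%), with a list median of 0.36 against 0.14 over all genes. THI73, a gene for a membrane transporter regulated by thiamine, was higher at 28°C by 2.03 (SE 0.37, adjusted p 0.000982), averaging 0.91 at 28°C and -1.12 at 12°C. PET18, a gene of unknown function with weak similarity to proteins of thiamine metabolism, was higher by 1.43 (SE 0.36, adjusted p 0.00760, 1 value missing at 28°C). PHO3, an acid phosphatase that frees thiamine from its phosphates outside the cell, was higher by 1.23 (SE 0.36, adjusted p 0.0144). NRT1, a nicotinamide riboside transporter of the THI7 family, was higher by 1.16 (SE 0.29, adjusted p 0.00610). These genes thus lay on the same side as THI20 and THI21.

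PDC2, the activator of pyruvate decarboxylase and thiamine genes, moved the other way. Averaged over strains it differed by -2.38 (SE 0.41, adjusted p 0.000769). Its log2 ratio was above T73 on 3 of 9 arrays at 28°C and on 9 of 9 arrays at 12°C, where it lay between 0.87 and 3.93. At 12°C it rose in S. kudriavzevii (2.79, adjusted p 0.00333) and in Fermol cryophile (2.31, adjusted p 0.0217). TPC1, the mitochondrial carrier of thiamine diphosphate, was lower at 28°C, with a difference of -0.77 (SE 0.29, adjusted p 0.0446) and rose against T73 in S. kudriavzevii at 12°C (1.12, adjusted p 0.0311). THI73 rose in S. uvarum at 28°C (1.84, adjusted p 0.0181) and fell by 1.40 in S. kudriavzevii at 12°C (adjusted p 0.0354). PET18 rose in S. uvarum at 28°C (1.89 on 2 arrays, adjusted p 0.0329). THI3, the regulator that senses thiamine diphosphate and acts with THI2, was not called in any of these comparisons, averaging -0.55 at 28°C and -0.30 at 12°C. The same held for THI80, which makes thiamine diphosphate from thiamine (0.41 at 28°C and 0.05 at 12°C), and for THI72, a transporter close to THI7 (0.13 at 28°C and 0.12 at 12°C).

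The vitamin B6 genes SNZ1, SNZ2, SNZ3, SNO1, SNO2 and SNO3 are of interest because the pyrimidine of thiamine is built from a form of that vitamin, and because SNZ3 stands next to THI5 and SNZ2 next to THI12 in the RefSeq annotation. Averaged over strains, 4 of 6 differed between the temperatures, where 36.2% of all genes did. Lower at 28°C were SNZ1, with a difference of -3.47 (SE 0.68, adjusted p 0.00217, 3 values missing), SNZ2 with -2.06 (SE 0.43, adjusted p 0.00233) and SNO1 with -1.41 (SE 0.38, adjusted p 0.00969). SNO2 was higher at 28°C by 1.11 (SE 0.36, adjusted p 0.0250). At 12°C SNZ2 was above T73 on 9 of 9 arrays and rose in S. uvarum (1.95, adjusted p 0.0396) and S. kudriavzevii (1.76, adjusted p 0.0263), while in S. kudriavzevii SNZ1 rose (2.80, adjusted p 0.0179) and SNO2 fell by 1.79 (adjusted p 0.0111). The temperature difference was not called for their neighbours, THI12 giving -0.30 (adjusted p 0.558) and THI5 giving -0.31 (adjusted p 0.467). SNZ3 gave -0.55 (adjusted p 0.277). The SNZ genes are similar in sequence, as are the SNO genes, and their spots may share RNA as well.

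Of 10 genes for enzymes that use thiamine diphosphate, 5 differed between the temperatures when averaged over strains, where 36.2% of all genes did, with a list median of 1.17 against 0.14 over all genes. PDA1 and PDB1, subunits of pyruvate dehydrogenase, were higher at 28°C by 2.41 (SE 0.56, adjusted p 0.00412) and 1.72 (SE 0.40, adjusted p 0.00416). PDA1 of S. kudriavzevii is among the genes that the study names as not hybridising to these arrays. The PDA1 difference was 2.29 within S. uvarum (adjusted p 0.168), 2.18 within S. kudriavzevii (adjusted p 0.218) and 2.76 within Fermol cryophile (adjusted p 0.0669), so that no strain passed alone. The transketolase gene TKL2 was higher by 1.79 (SE 0.40, adjusted p 0.00340), and the acetolactate synthase gene ILV2 by 1.58 (SE 0.38, adjusted p 0.00522). ARO10, a decarboxylase of the pathway to fusel alcohols, was lower at 28°C, with a difference of -1.08 (SE 0.37, adjusted p 0.0318). The pyruvate decarboxylase genes PDC1 (0.99, adjusted p 0.153), PDC5 (1.35, adjusted p 0.0747) and PDC6 (0.45, adjusted p 0.215) did not pass. Against T73, PDB1 (2.42, adjusted p 0.00775) and PDA1 (2.29, adjusted p 0.0411) rose in S. uvarum at 28°C, and ARO10 rose at 12°C in S. uvarum (2.30, adjusted p 0.0111) and S. kudriavzevii (1.46, adjusted p 0.0290). TKL2 fell at 12°C by 1.61 in S. kudriavzevii (adjusted p 0.0273) and by 1.67 in Fermol cryophile (adjusted p 0.0460). In S. kudriavzevii at 12°C PDC6 rose (1.00, adjusted p 0.0451) and ILV2 fell by 1.59 (adjusted p 0.0231).

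**Figure D4:**
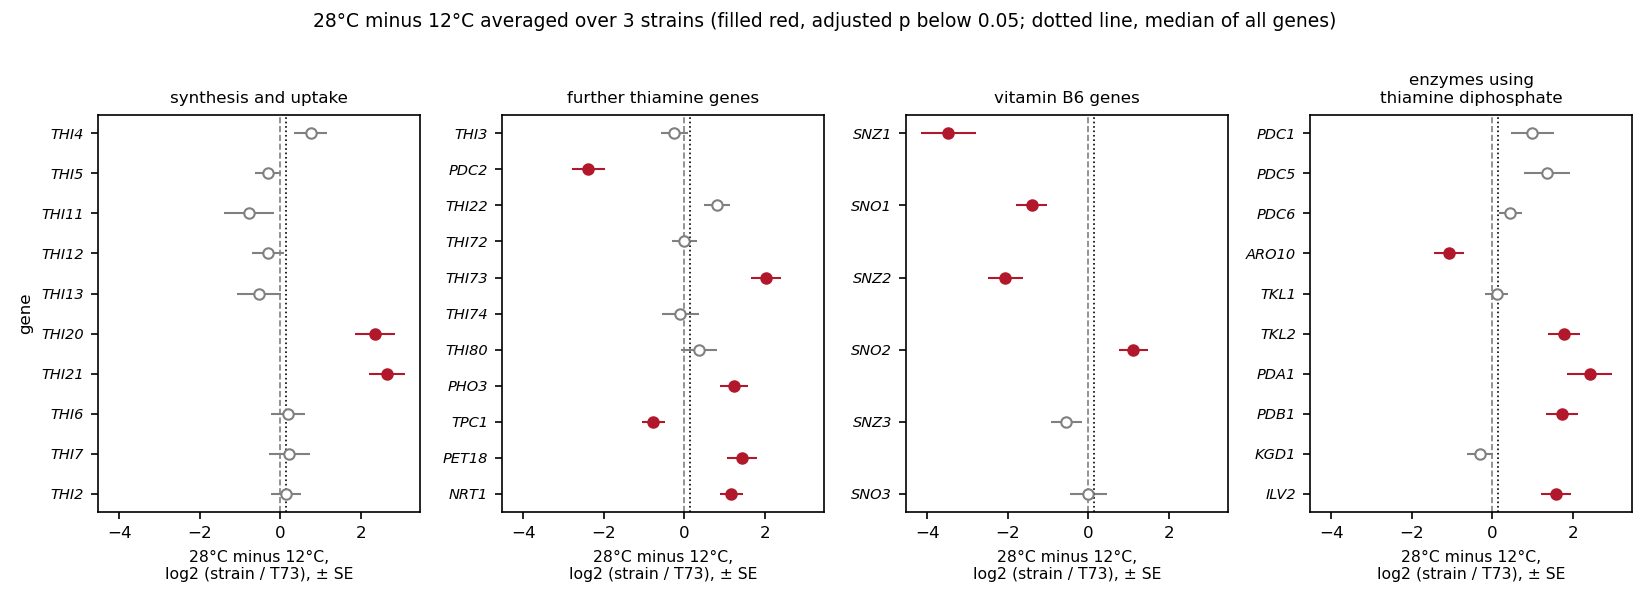
Difference in log2 ratio, 28°C minus 12°C, averaged over the 3 strains (± SE of the limma fit), for the 10 thiamine synthesis and uptake genes and for 3 related gene lists. Filled red points passed the test and the dotted line is the median of all genes (0.14). In the first panel THI20 lies at 2.34 and THI21 at 2.65 while the other 8 genes lie between -0.78 and 0.76. PDC2, SNZ1 and SNZ2 lie below -2, and PDA1 lies at 2.41.

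The genes whose ratios were most like those of the pyrimidine family or of THI4 were looked for among 4998 genes with a value on all 18 arrays, the 10 thiamine genes left out. For the mean of THI5, THI11, THI12 and THI13 these were YNR071C (Pearson r 0.857, Spearman rho 0.707), YPT35 (0.835 and 0.732), ATF2 (0.802 and 0.670), HAL1 (0.797 and 0.849) and MAL32 (0.780 and 0.775). For THI4 they were ATP7 (0.904 and 0.913), SIA1 (0.897 and 0.907), HTB2 (0.878 and 0.814), SDH2 (0.874 and 0.843) and RPB7 (0.864 and 0.847). The arrays share T73 and the dye order, and the highest of so many coefficients are high in part by selection.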

How the data were processed

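The values are log2 ratios that the authors deposited, 1 for each gene and array. RNA was amplified, labelled through cDNA and hybridised to PCR-product arrays of S. cerevisiae S288c. The authors subtracted a global background in GenePix Pro and normalised each array in Acuity. Their methods state a normalised value of 1 on the log2 scale, read here as a ratio of 1 because the array medians lie near 0. They dropped spots that were not found and adjusted print-tip effects manually. The ratios do not show how far a spot lay above background, so precision is limited by how many arrays there were.

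The numerator was not stated. The dyes in the labels and the usual Cy5 over Cy3 make the deposited ratio T73 over strain, and the sign was turned. After turning, 113 of 113 directions in the study's text matched the file, and 0 did as deposited. That text rests on the same arrays, so this shows only how the file runs.

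Of 6178 genes on the array (2 control spots left out), lines of the same gene were averaged, which left 6172. For gene names, 5148 matched a symbol in the RefSeq annotation, 526 a gene without symbol, 12 an older name and 492 nothing. Values were missing in 1.48% of cells. THI13 had 17 values and each of the other thiamine genes had 18.

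limma 3.58.1 in R 4.3.3 was fitted on all 18 arrays with 1 coefficient per group, two-sided, with Benjamini-Hochberg adjustment over all genes with at least 2 values in each group compared. Called means an adjusted p below 0.05. The code was tested on simulated data. All 10 genes and the 3 related lists (genes named where called against T73 or between temperatures averaged over strains, and THI3, PDC2, THI80, THI72 and PHO3 in any case) were chosen with earlier results of these data known. The alternatives were centring, scaling or quantile normalization of arrays, array weights, extreme values as missing, a replicate block, complete values, each array left out in turn, each group fitted alone, a 3-fold rule, and the 4 near-identical genes as 1.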

Additional observations from a re-analysis of the deposited data

Results flagged for a closer look

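THI20 and THI21 were flagged because their difference from T73 was itself different between the temperatures, by the test of that difference. Averaged over the 3 strains, the log2 ratio of strain over T73 was higher at 28°C than at 12°C by 2.34 for THI20 (adjusted p 0.00247, limma) and by 2.65 for THI21 (adjusted p 0.000702). These were 2 of 10 thiamine genes, where 36.2% of all genes were called, so the members did not stand above that share. Within Fermol cryophile the ratio was higher by 3.33 for THI20 (adjusted p 0.0268) and by 2.86 for THI21 (adjusted p 0.0306), 2 of 10 genes where 12.2% of all genes were called. THI21 was above T73 on 9 of 9 arrays at 28°C and on 1 of 9 at 12°C, THI20 on 6 of 9 at 28°C and on 0 of 9 at 12°C. T73 contributes to each of these values with the opposite sign.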

How the results depend on the processing

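The 11 calls of thiamine genes kept their sign in every alternative fit run, and the 2 calls of THI20 and THI21 averaged over strains held in all of them, with 2 to 3 genes called when 1 array was left out. The other 9 calls were lost in at least 1 of the 18 fits without 1 array. In those fits the number of thiamine genes called was 0 to 3 in S. uvarum at 28°C (1 with all arrays), 0 to 4 in S. uvarum at 12°C (2), 0 to 1 for S. kudriavzevii at 28°C (0), 1 to 5 for S. kudriavzevii at 12°C (4), 0 to 1 in Fermol cryophile at 28°C (0) and 0 to 0 at 12°C (0). It was 0 to 2 over the 6 comparisons between strains (0), 0 to 4 between the temperatures within strains (2) and 0 to 0 for differences between strains in the temperature difference (0). The share of all genes called in the fits without 1 array is not given here. These ranges therefore do not set the thiamine genes apart from all genes. Without array A of S. uvarum at 28°C there were 4 within strains and 4 in S. uvarum at 12°C, without array C of S. uvarum at 28°C there were 0 in that group, without array B of S. uvarum at 12°C there were 3 in S. uvarum at 28°C and 0 at 12°C, and without array B of S. kudriavzevii at 12°C there was 1 in that group. S. kudriavzevii at 12°C had 2 calls without any 1 array of Fermol cryophile at 12°C, array A of Fermol cryophile at 28°C, array A or B of S. kudriavzevii at 28°C or array B of S. uvarum at 28°C. The 2 calls between strains appeared without array C of S. kudriavzevii at 12°C. Leaving out array C of Fermol cryophile at 28°C, with its narrow spread, gave 1 in that group. Array weights gave 5 genes in S. uvarum at 12°C, 4 in S. kudriavzevii at 28°C, 1 at 12°C, 3 in Fermol cryophile at 28°C, 5 at 12°C, 7 within strains and 6 between strains, THI4 in S. uvarum against S. kudriavzevii at 28°C and against Fermol cryophile at 12°C among them. In the first 5 of these groups array weights called 13.0%, 11.8%, 19.3%, 26.4% and 51.2% of all genes, and for Fermol cryophile between the temperatures 54.2%. Of the 6 calls between strains, 4 lay in S. kudriavzevii minus Fermol cryophile at 28°C, where array weights called 17.7% of all genes. The others were 1 in S. uvarum minus S. kudriavzevii at 28°C (1.77%) and 1 in S. uvarum minus Fermol cryophile at 12°C (1.09%). Scaling the arrays to a common spread gave 3 in S. kudriavzevii at 28°C, 1 at 12°C and 2 in Fermol cryophile at 28°C, where 4.75%, 7.35% and 3.9% of all genes were called, and quantile normalization gave 3, 1 and 3 there (5.54%, 8.31% and 5.23% of all genes) and 4 within strains. Of those 4 within strains, 3 lay in Fermol cryophile (21.0% of all genes) and 1 in S. kudriavzevii (0.717%). Fits of 1 group alone gave 0 in S. uvarum at 28°C, 0 at 12°C, 0 for S. kudriavzevii at 12°C and 3 for Fermol cryophile at 12°C (24.6% of all genes). In the first 3 of these groups such fits called 0.0% of all genes, so no gene passed there. A 3-fold in place of the 2-fold rule left 4 of 6 genes in S. uvarum at 28°C and 3 of 8 at 12°C. It left 2 of 5 in S. kudriavzevii at 28°C and 3 of 5 at 12°C, and 2 of 3 in Fermol cryophile at 28°C and 0 of 3 at 12°C. The share of all genes past the 3-fold rule is not given here, so these counts do not set the thiamine genes apart. With values beyond 10 as missing, 2 were called in S. uvarum at 28°C (11.4% of all genes). Replicate letters did not pair the arrays, since residuals of arrays with the same letter correlated with a median r of 0.028 over 45 pairs. With the letter as replicate block S. kudriavzevii at 12°C had 2 calls in place of 4 (23.8% of all genes in place of 23.4%), and no call in another comparison was lost. The cause of these shifts was not tested. With the mean of the 4 near-identical genes in place of the 4, no call of the other genes was lost, and the mean itself was called at 12°C in S. uvarum (1.77, SE 0.41) and S. kudriavzevii (1.78, SE 0.41) but in no other comparison. This mean was not fitted with single arrays left out.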
